A study of Homo sapiens with 35 samples.

Results

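Protein-coding transcripts of the established human myeloma line RPMI-8226 were compared between 5 libraries labelled day 1 and 5 labelled day 0, out of 35 libraries of a recovery series sampled at 7 time points. Day 1 cells had been exposed to 750 nM of the proteasome inhibitor carfilzomib for 1 h and were collected 24 h later in medium without the drug. Day 0 cells carry the same treatment in their labels, but the study's methods state that they were collected before carfilzomib was added, and they were taken as untreated. Both days came from 1 line and from subcultures of a single expanded culture, so the spread between the 5 libraries of a day covers culture, library and sequencing, not separate experiments. The medium was renewed on day 0 before the pulse and again after it, and no mock-pulsed culture of day 1 was analysed here, so the drug, the medium changes and the time in culture cannot be told apart. Of 19665 protein-coding entries, each a gene symbol, 17999 had a count in at least 1 library and were tested, and 1666 had none.

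The proteasome is made of a 20S core particle, which holds the cutting sites, and 19S regulatory particles, which bind ubiquitinated proteins, unfold them and feed them into the core. Carfilzomib binds the core irreversibly, and cells make new subunits through the transcription factor NRF1 (gene NFE2L1). Plasma cells and the myelomas that arise from them make large amounts of immunoglobulin and rely on chaperones of the endoplasmic reticulum (ER), on the unfolded protein response and on proteasomal disposal. Proteins that escape disposal, and the oxidants that accumulate with them, are met by cytosolic heat shock proteins, by NRF2 (gene NFE2L2) and its antioxidant targets, and by the integrated stress response, in which kinases of eIF2α raise the factor ATF4.

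Between 6641766 and 9400769 counts were assigned per library, of which 5373835 to 7457004 were protein coding. Values below are CPM, the counts of a transcript scaled to a common TMM-normalized library size. They are given for replicates 1 to 5 in that order or as mean ± SD of 5 libraries. CPM are relative to the RNA sequenced, and are neither amounts per cell nor exact shares of a library. In bulk RNA, fewer cells with a transcript and less of it per cell cannot be told apart. Fold changes are on the log2 scale, day 1 minus day 0, with an approximate standard error (SE) and the Benjamini–Hochberg adjusted p (Q). Both come from the quasi-likelihood test of edgeR over all 17999 transcripts. The SE is the absolute log2 fold change divided by the square root of that test's F statistic. It can be too small where the change is large and counts on a day are few. Some genes belong to more than 1 of the gene lists. A member of a list was counted as higher or lower at Q ≤ 0.05, and a transcript was called deregulated when its fold change was also above 2. Statements that the libraries of a gene did not overlap describe that gene only. The share of all transcripts without overlap is not given here. The cytosolic ribosomal proteins took 11.3% ± 0.44 of protein-coding counts on day 0 and 7.34% ± 0.26 on day 1, and the mitochondrially encoded transcripts 9.54% ± 1.54 and 6.20% ± 0.79. Entries annotated as retained introns held 7.15% ± 0.57 and 5.05% ± 0.46 of all counts. The libraries of the 2 days did not overlap in any of these 3 shares (exact permutation tests, two-sided, p = 0.00794, the smallest possible, adjusted p = 0.0136 over 12 measures). Day 1 replicate 3 stood apart in RNA outside the protein-coding entries. Its lincRNA share was 3.61% against 1.47% to 1.95% in the other 4 libraries of day 1, its antisense share 1.28% against 0.532% to 0.603%, and its processed pseudogene share 0.746% against 0.183% to 0.192%. The part of this library in the results below was measured by leaving it out.

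**Figure D1:**
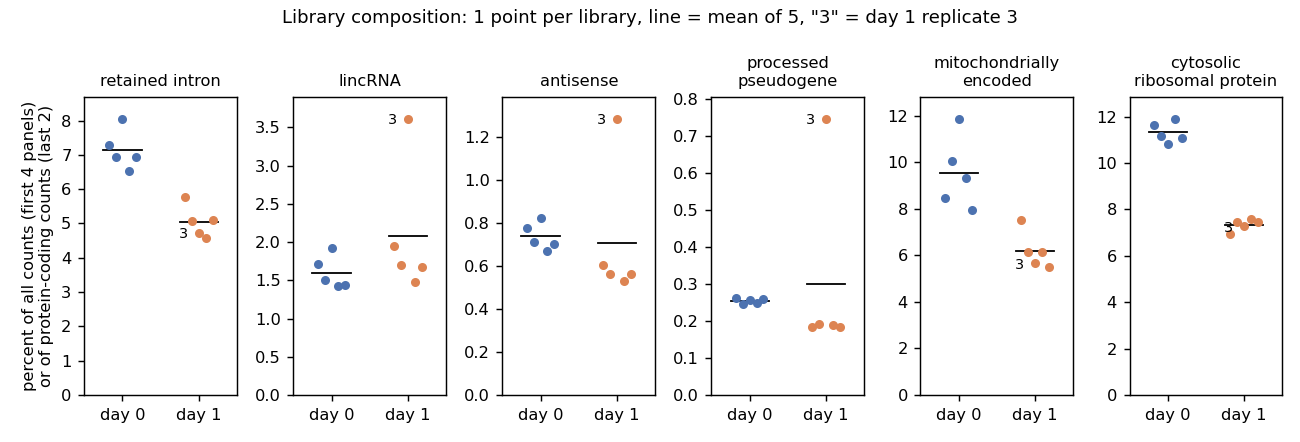
Share of counts, in percent, taken by 6 kinds of transcript in each of the 10 libraries, with day 0 in blue, day 1 in orange and a line at the mean of 5. Retained introns, mitochondrially encoded transcripts and cytosolic ribosomal proteins took smaller shares on day 1, and day 1 replicate 3, marked 3, lay far above the other libraries in lincRNA, antisense and processed pseudogene entries.

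At Q ≤ 0.05, 4570 transcripts were higher on day 1 (25.4% of those tested) and 4910 lower (27.3%). With the fold cutoff, 1308 were higher (7.27%) and 2371 lower (13.2%). Among abundant transcripts the order was the other way: above a mean of 64 CPM, 341 of 3330 transcripts were deregulated upwards and 254 downwards. Without day 1 replicate 3, 1283 were higher and 2232 lower. Without scaling factors the median change of the 12301 transcripts with enough counts moved from 0.0098 to 0.12, and the share of higher ones among deregulated transcripts moved from 35.6% to 44.5%. The median log2 fold change over all 17999 was −0.061. Among the 12151 transcripts with a mean above 1 CPM it was 0.016, with 4436 higher and 4230 lower at Q ≤ 0.05. Above 64 CPM it was 0.107, with 1575 of 3330 higher and 1211 lower. Members of most gene lists lay above 1 CPM, so their counts and medians are to be set beside these values as well as those of all transcripts.

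**Figure D2:**
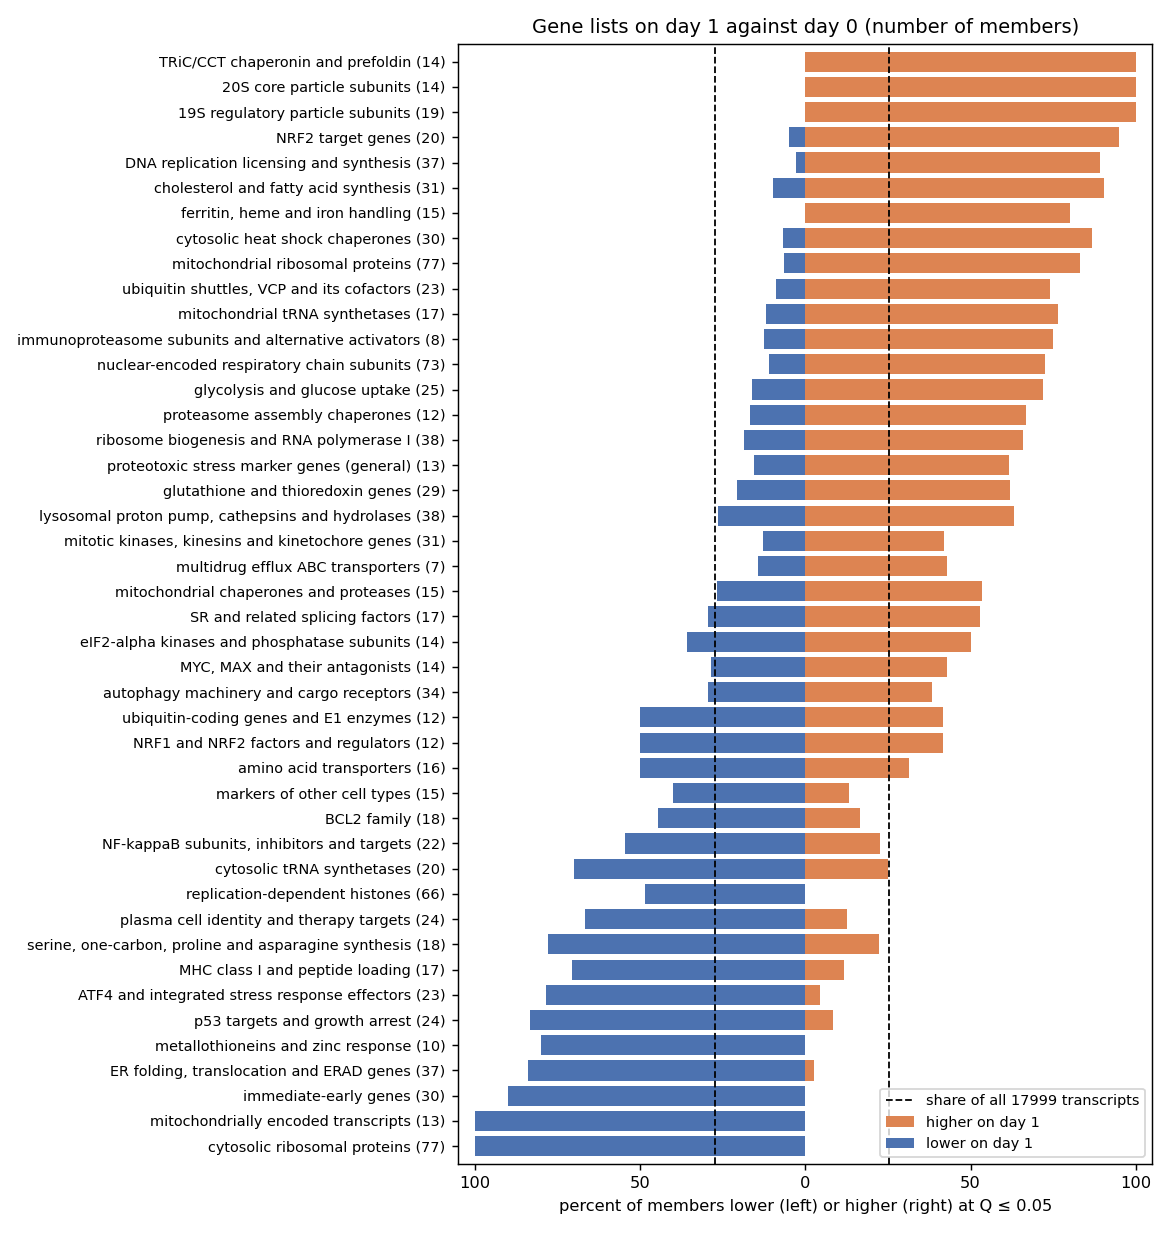
Percent of the members of each gene list that were lower (blue, left) or higher (orange, right) on day 1 at Q ≤ 0.05, with the number of members in brackets and dashed lines at the shares of all 17999 transcripts, 27.3% and 25.4%. All 14 subunits of the 20S core particle and all 19 of the 19S regulatory particle were higher, and all 77 cytosolic ribosomal proteins and all 13 mitochondrially encoded transcripts were lower.

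The constitutive proteasome subunits were all higher on day 1. The 14 of the 20S core had a median log2 fold change of 1.81 and the 19 of the 19S particle a median of 1.92. Summed over members, the 20S list went from 1053 to 1232 CPM per library on day 0 to 3891 to 4396 CPM on day 1, and the 19S list from 1401 to 1592 CPM to 6147 to 6762 CPM. PSMC4, an ATPase of the ring that unfolds substrates, had 37.4, 26.7, 33.8, 40.7 and 36.2 CPM on day 0 and 364, 387, 394, 414 and 377 CPM on day 1. Its log2 fold change was 3.47 (SE 0.10, adjusted p = 1.97e-28), the largest of all 33 subunits. PSMD2, a scaffold of the 19S base, had 132, 153, 124, 154 and 145 CPM on day 0 and 1178, 1138, 1172, 1222 and 1168 CPM on day 1, a log2 fold change of 3.05 (SE 0.065, adjusted p = 5.87e-33). PSMB3, a core subunit without a cutting site, had 81, 74.9, 63.3, 79.6 and 78.9 CPM on day 0 and 373, 407, 401, 445 and 397 CPM on day 1, a log2 fold change of 2.42 (SE 0.075, adjusted p = 1.02e-27). For these 3 subunits the lowest library of day 1 stood above the highest of day 0. PSMB5, whose active site is the one carfilzomib binds best, rose less, from 53.4 ± 5.08 to 128 ± 5.56 CPM (log2 fold change 1.26, SE 0.067, adjusted p = 8.22e-20).

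Factors that build proteasomes, and the forms of the core that immune signals induce, moved less evenly. Of 12 assembly chaperones, 8 were higher and 2 lower (median 0.33). POMP, the maturation protein that closes the core, had 40.1, 40.6, 44.9, 51.7 and 41.6 CPM on day 0 and 177, 189, 192, 206 and 194 CPM on day 1, without overlap, a log2 fold change of 2.14 (SE 0.069, adjusted p = 4.09e-27). PSMG3, a subunit of an early assembly chaperone, fell from 44.5 ± 3.38 to 29.8 ± 1.77 CPM (log2 fold change −0.58, SE 0.075, adjusted p = 8.78e-09). Of 8 immunoproteasome subunits and alternative activators, 6 were higher and 1 lower. PSME4, the activator known as PA200, rose from 112 ± 17.6 to 314 ± 32.7 CPM (log2 fold change 1.48, SE 0.11, adjusted p = 5.73e-15). PSMB9, an inducible core subunit, went from 21.3 ± 2.34 to 22.1 ± 2.89 CPM, with an adjusted p of 0.698, and PSMB8 passed the threshold at 0.16 with an adjusted p of 0.0369 but had overlapping libraries and an adjusted p of 0.083 with RLE factors. Its call was also lost without day 0 replicate 2, 3 or 4 or day 1 replicate 1, 2 or 5 (adjusted p of 0.0768 to 0.195). Of 23 ubiquitin shuttles, VCP cofactors and VCP itself, which pulls ubiquitinated proteins out of complexes and membranes, 17 were higher and 2 lower (median 0.85). ZFAND2A, a stress-induced partner of the proteasome, rose by 1.71 and NSFL1C, a VCP cofactor, by 1.54 on the log2 scale.

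Genes for ubiquitin and its activation moved both ways. RPS27A, which encodes ubiquitin fused to a ribosomal protein, fell from 1042 ± 80.5 to 729 ± 21.6 CPM (log2 fold change −0.51, SE 0.063, adjusted p = 3.47e-09). UBB, which encodes a chain of ubiquitin units, went from 220.4 ± 21.5 to 184 ± 24.5 CPM with overlapping libraries and a log2 fold change of −0.26 (SE 0.070, adjusted p = 0.00153). Of 12 genes for ubiquitin and for E1 activating enzymes, 5 were higher and 6 lower. UBA1, the main E1 of ubiquitin, rose from 344 ± 23.5 to 671 ± 22.5 CPM (log2 fold change 0.96, SE 0.051, adjusted p = 8.57e-20), and UBA7, the E1 of the interferon-induced modifier ISG15, fell from 5.8 ± 0.436 to 0.819 ± 0.585 CPM (log2 fold change −2.77, SE 0.32, adjusted p = 6.63e-10).

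The transcript of NRF1 was lower and that of NRF2 did not pass the test. NFE2L1 had 822, 823, 775, 818 and 827 CPM on day 0 and 353, 362, 348, 361 and 350.1 CPM on day 1, a log2 fold change of −1.20 (SE 0.061, adjusted p = 2.24e-20) with no overlap. NFE2L2 had 79.3, 74.4, 77.4, 81.2 and 86.6 CPM on day 0 and 76.4, 70.8, 71.3, 68.3 and 78.8 CPM on day 1, with overlapping libraries and a log2 fold change of −0.12 (SE 0.078, adjusted p = 0.188). KEAP1, the adaptor that marks NRF2 for degradation, rose from 104 ± 6.71 to 182 ± 9.75 CPM (log2 fold change 0.81, SE 0.058, adjusted p = 1.03e-15). NGLY1, the enzyme that removes sugar chains from NRF1 as it matures, rose by 0.48, while the repressors BACH1 and BACH2 changed by −0.37 and −1.55. Of the 12 NRF1 and NRF2 factors and regulators, 5 were higher and 6 lower.

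Of 20 targets of NRF2, 19 were higher and 1 lower, with a median of 2.04. HMOX1, heme oxygenase 1, had 3.66, 4.29, 1.97, 4.61 and 5.39 CPM on day 0 and 187, 184, 182, 222 and 158 CPM on day 1, a log2 fold change of 5.56 (SE 0.18, adjusted p = 2.55e-27). NQO1, a quinone reductase, had 6.89, 8.73, 6.97, 6.61 and 8.47 CPM on day 0 and 98.5, 104, 108, 122 and 105 CPM on day 1, a log2 fold change of 3.83 (SE 0.12, adjusted p = 5.21e-27). GCLM, the regulatory subunit of the enzyme that starts glutathione synthesis, had 14.8, 17.3, 15.2, 17.4 and 16.9 CPM on day 0 and 90.7, 83.1, 92.1, 95.9 and 92.3 CPM on day 1, a log2 fold change of 2.48 (SE 0.086, adjusted p = 6.81e-26). None of these 3 overlapped between the days, and each rose more than 5-fold. Of the pentose phosphate enzymes, PGD, which makes NADPH, rose by 1.85 and TALDO1 by 2.39. The member that fell was SLC7A11, the cystine transporter, with 182, 182, 183, 174 and 187 CPM on day 0 and 71.6, 57.4, 65.7, 64.8 and 61.7 CPM on day 1, a log2 fold change of −1.50 (SE 0.084, adjusted p = 3.86e-19). SLC7A11 is a target of ATF4 as well as of NRF2. The smallest rise was that of ABCC1, an efflux pump, at 0.14 (adjusted p = 0.0463), and its call was lost with RLE factors, where its adjusted p was 0.11, and without any 1 library other than day 1 replicates 2 and 4 (adjusted p of 0.0698 to 0.156).

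The promoters of these genes were read from RefSeq (GRCh38.p14), in windows of 250 bases before to 50 bases after the annotated start, which were matched for 13348 of the 17999 transcripts. Only 1 window was used per gene symbol, so any other start of a gene was not searched. The core of the antioxidant response element, at which NRF1 and NRF2 bind with small MAF proteins, was searched on both strands as TGACNNNGC, a short pattern that 14.5% of all 13348 windows held. It was found in 1 of the 10 windows of 20S subunits that rose, in 5 of 18 of 19S subunits (PSMC4, PSMD1, PSMD3, PSMD12 and ADRM1) and in 4 of 13 of NRF2 targets (GCLM, TXNRD1, PGD and ME1). These shares are descriptions, and a window without the letters says nothing about sites elsewhere. The 3 windows below are those of the members of each list with the largest rise among those that hold the pattern, with the matching bases in capitals. They lie at chr19:39970915-39971214 (plus strand, 28 to 36 bases into the transcript), chr17:38752491-38752790 (plus strand, −104 to −96 from the start) and chr1:93909381-93909680 (minus strand, −34 to −26), and are written 5′ to 3′ on the strand of the gene.
PSMC4: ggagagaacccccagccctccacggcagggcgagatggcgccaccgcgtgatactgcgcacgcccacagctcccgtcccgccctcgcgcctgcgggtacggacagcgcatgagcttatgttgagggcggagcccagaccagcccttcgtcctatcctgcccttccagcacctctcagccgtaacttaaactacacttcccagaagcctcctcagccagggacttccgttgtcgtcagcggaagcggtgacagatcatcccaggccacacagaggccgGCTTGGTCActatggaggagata
PSMB3: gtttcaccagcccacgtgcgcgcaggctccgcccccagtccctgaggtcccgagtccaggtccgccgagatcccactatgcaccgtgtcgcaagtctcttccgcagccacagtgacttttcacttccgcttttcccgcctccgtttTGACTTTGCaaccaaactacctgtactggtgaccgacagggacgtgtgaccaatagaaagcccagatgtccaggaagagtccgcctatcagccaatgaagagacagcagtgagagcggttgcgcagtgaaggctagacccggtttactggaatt
GCLM: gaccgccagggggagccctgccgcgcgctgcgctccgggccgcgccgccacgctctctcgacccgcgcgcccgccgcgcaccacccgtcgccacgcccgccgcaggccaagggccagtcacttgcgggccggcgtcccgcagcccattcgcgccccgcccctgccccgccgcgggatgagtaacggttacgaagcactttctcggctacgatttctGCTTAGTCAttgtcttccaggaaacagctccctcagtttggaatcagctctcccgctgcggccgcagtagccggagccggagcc

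**Figure D3:**
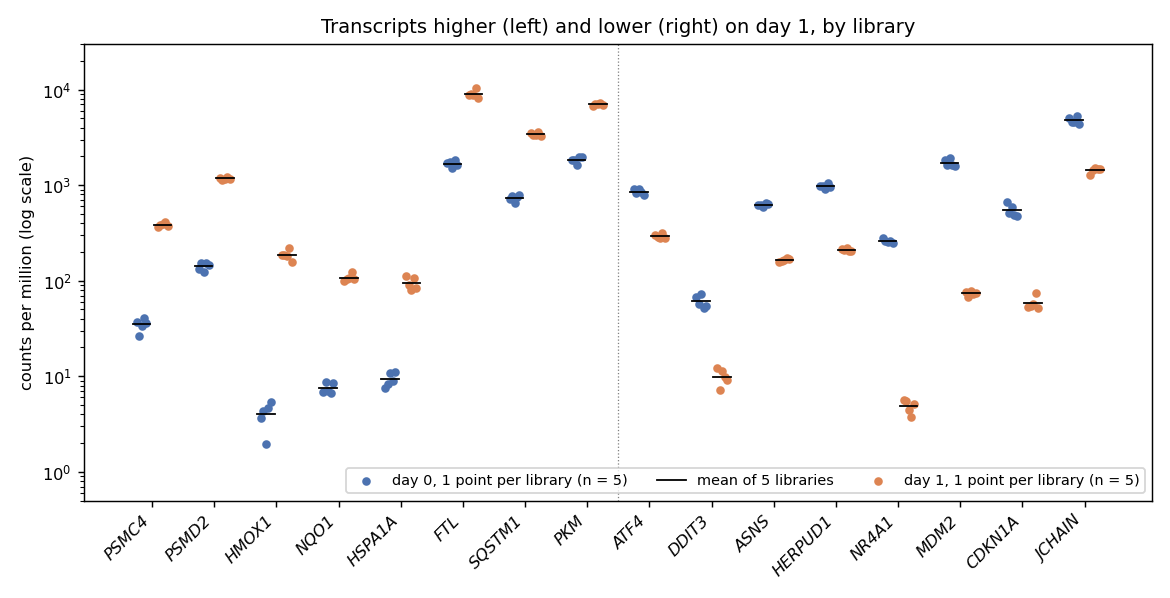
CPM, on a log axis, of 16 transcripts in each library of day 0 (blue) and day 1 (orange), with a line at the mean of 5. The 8 transcripts on the left were higher on day 1 and the 8 on the right lower. HSPA1A is shown without HSPA1B, though how reads were split between them is uncertain. No transcript had overlapping libraries, which was a condition of the rule by which some of them were named.

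Genes that handle iron and glutathione rose with the NRF2 targets, with which they share members. Of 15 ferritin, heme and iron genes, 12 were higher and none lower (median 0.72). FTL, the ferritin light chain, had 1689.9, 1736, 1516, 1813 and 1638 CPM on day 0 and 8699, 8966, 8863, 10292 and 8223 CPM on day 1, a log2 fold change of 2.42 (SE 0.071, adjusted p = 2.18e-28), and was among the most abundant transcripts of day 1. BLVRB, a biliverdin reductase that acts downstream of heme oxygenase, rose from 21.1 ± 2.79 to 135 ± 13 CPM (log2 fold change 2.67, SE 0.095, adjusted p = 1.20e-25). Of 29 glutathione and thioredoxin genes, 18 were higher and 6 lower (median 0.89). SOD1, the cytosolic superoxide dismutase, rose from 85.1 ± 5.22 to 623 ± 10.5 CPM (log2 fold change 2.87, SE 0.063, adjusted p = 1.26e-32), and GSR, which regenerates glutathione, from 37.6 ± 5.61 to 184 ± 10.1 CPM. The peroxidases GPX1 and GPX4, which are selenoproteins, had log2 fold changes of −0.93 and −0.68, and PRDX4, the peroxiredoxin of the ER, one of −0.89. Of 10 genes of metallothioneins and the zinc response, 8 were lower and none higher. Of the 7 metallothioneins among them, small metal-binding proteins often raised by oxidants and zinc, 5 were lower, and MT1X went from 25.7 ± 4.6 to 12.6 ± 2.26 CPM (log2 fold change −1.03, SE 0.18, adjusted p = 5.10e-06).

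Cytosolic chaperones rose broadly. Of 30 heat shock genes 26 were higher and 2 lower, with a median of 0.98, and all 14 subunits of the TRiC chaperonin and of prefoldin, which fold actin and tubulin, were higher with a median of 0.82. HSPA1A, the inducible HSP70, had 7.59, 8.25, 10.7, 9.02 and 11.2 CPM on day 0 and 111, 89.9, 80.1, 106 and 83.7 CPM on day 1, a log2 fold change of 3.34 (SE 0.16, adjusted p = 4.48e-21). HSPA1A and HSPA1B encode nearly the same protein and share most of their sequence, so how reads were split between them is uncertain. Summed, they had 152, 192, 150.5, 188 and 203 CPM on day 0 and 388, 321, 313, 343 and 323 CPM on day 1, a ratio of means of 1.91 without overlap. HSPB1, the small heat shock protein HSP27, had 71.3, 71.4, 53.8, 68.7 and 70.6 CPM on day 0 and 278, 287, 258, 361 and 264 CPM on day 1, a log2 fold change of 2.11 (SE 0.094, adjusted p = 2.48e-22). HSPB8, a small heat shock protein of chaperone-assisted autophagy, had no count on day 0 and 98 on day 1, and was at least 31.0-fold higher when set against 3 counts over the 5 libraries of day 0. HSPA8 and HSP90AA1, the abundant constitutive HSP70 and the inducible HSP90, rose by 1.68 and 1.97. HSPA6, an HSP70 that is nearly silent without stress and was not among the 30 genes counted, rose from 1.04 ± 0.396 to 15.6 ± 3.2 CPM (log2 fold change 3.87, SE 0.38, adjusted p = 1.25e-11). The exceptions were DNAJB1, an HSP40 that partners HSP70, which fell from 104 ± 5.43 to 71.7 ± 4.23 CPM (log2 fold change −0.53, SE 0.066, adjusted p = 4.07e-09), and HSPA1L, which is rare here and whose libraries overlapped (−0.88, adjusted p = 0.0217, or 0.059 in a fit of only the 10 libraries, and 0.0712 and 0.0603 without day 1 replicate 2 or 5). HSF1, the factor that drives these genes, changed by 0.16 (adjusted p = 0.0134) and by −0.0014 when all transcript biotypes of the symbol were summed, and its adjusted p was 0.0627 without day 1 replicate 4.

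CHORDC1, a cochaperone of HSP90, had 18.4, 17, 18.4, 18 and 21.6 CPM on day 0 and 76, 81.1, 78.4, 79.2 and 77.6 CPM on day 1, a log2 fold change of 2.07 (SE 0.10, adjusted p = 3.27e-21). The heat shock element, at which HSF1 binds, was searched as 3 blocks that alternate between GAA and TTC with 2 bases between blocks, on both strands. It was found in 4 of the 22 windows of chaperones that rose (HSPA8, DNAJA1, DNAJB6 and CHORDC1) and in 50 of all 13348 windows (0.375%). The window of CHORDC1, the member with the largest rise among these 4, is shown because it holds 3 overlapping matches between −60 and −38, in capitals. It lies at chr11:90223000-90223299 on the minus strand.
CHORDC1: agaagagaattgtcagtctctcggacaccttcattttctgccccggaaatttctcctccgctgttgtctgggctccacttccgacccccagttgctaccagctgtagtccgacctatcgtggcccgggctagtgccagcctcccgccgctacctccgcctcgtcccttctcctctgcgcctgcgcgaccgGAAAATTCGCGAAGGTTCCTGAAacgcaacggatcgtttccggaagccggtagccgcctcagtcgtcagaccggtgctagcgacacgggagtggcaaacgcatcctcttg

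Autophagy and lysosomal genes moved in both directions. SQSTM1, the receptor p62 that carries ubiquitinated cargo and binds KEAP1, had 713, 766, 647, 749 and 779 CPM on day 0 and 3510.4, 3337, 3323, 3618 and 3283 CPM on day 1, a log2 fold change of 2.22 (SE 0.067, adjusted p = 4.35e-28). GABARAPL1, a protein of the autophagosome membrane, rose from 9.97 ± 2.61 to 71.5 ± 5.08 CPM (log2 fold change 2.83, SE 0.17, adjusted p = 7.08e-18). WIPI1, which acts early in autophagosome formation, fell from 138 ± 16.7 to 43.5 ± 5.33 CPM (log2 fold change −1.67, SE 0.10, adjusted p = 8.17e-18). Of 34 autophagy genes 13 were higher and 10 lower, with a median of 0.082. These counts lay near the shares of all 12151 transcripts above 1 CPM, of which 4436 were higher and 4230 lower. Of 38 lysosomal genes 24 were higher and 10 lower (median 0.38). GLA, which cleaves galactose from glycolipids, rose from 26.2 ± 1.91 to 272 ± 15.5 CPM (log2 fold change 3.38, SE 0.074, adjusted p = 1.05e-32), ATP6V1A, a subunit of the proton pump, from 63.1 ± 2.21 to 303 ± 16.7 CPM, and the protease CTSD from 238 ± 18.6 to 741 ± 28.6 CPM. GAA, which breaks down glycogen, fell from 151 ± 8.99 to 40.4 ± 5.32 CPM, and the protease CTSS from 348 ± 10.6 to 134 ± 6.15 CPM.

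ER genes were lower. Of 37 genes for ER folding, translocation and ER-associated degradation, 31 were lower and 1 higher, with a median of −0.64. HSPA5, the ER chaperone BiP, had 2424, 2519.9, 2336, 2692 and 2730.3 CPM on day 0 and 1289, 1265, 1381, 1396 and 1351 CPM on day 1, a log2 fold change of −0.93 (SE 0.048, adjusted p = 4.39e-20). HERPUD1, a component of the ER degradation machinery that is normally raised by ER stress, had 972, 978, 903, 1043 and 959 CPM on day 0 and 214, 211, 220.1, 205 and 203 CPM on day 1, a log2 fold change of −2.20 (SE 0.064, adjusted p = 1.62e-28). The libraries of the 2 days did not overlap in either gene. ERN1, the sensor IRE1α, fell from 619 ± 100.2 to 153 ± 9.22 CPM (log2 fold change −2.02, SE 0.083, adjusted p = 1.57e-23), SEL1L, a partner of the ligase HRD1, from 551 ± 20.5 to 156 ± 7.36 CPM, and DERL3, a derlin of the same complex, from 69.8 ± 7.27 to 20.8 ± 2.2 CPM. XBP1, the factor that IRE1α activates by splicing, had 442, 449, 406, 458 and 447 CPM on day 0 and 399, 464, 469, 486 and 464 CPM on day 1, with overlapping libraries and a log2 fold change of 0.051 (SE 0.053, adjusted p = 0.442), and without scaling factors its fold change was 0.17 with an adjusted p of 0.0024. Counts summed over a symbol do not separate its spliced form. ATF6, the third sensor and the only member that was higher, rose from 124 ± 5.49 to 175 ± 7.89 CPM (log2 fold change 0.49, SE 0.055, adjusted p = 2.38e-10).

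Genes of the integrated stress response were lower on day 1. Of 23 genes of ATF4 and its effectors, 18 were lower and 1 higher, with a median of −1.57. ATF4 had 909.6, 834, 900.4, 845 and 789.9 CPM on day 0 and 297, 287, 283, 318 and 282 CPM on day 1, a log2 fold change of −1.54 (SE 0.055, adjusted p = 1.49e-25). DDIT3, the factor CHOP, had 67.8, 57.5, 73.1, 51.9 and 53.9 CPM on day 0 and 12.2, 7.24, 11.3, 9.78 and 9.13 CPM on day 1, a log2 fold change of −2.61 (SE 0.14, adjusted p = 1.30e-19). ATF3, a repressor that ATF4 induces, had 132, 94.3, 128, 99.4 and 87 CPM on day 0 and 12.9, 9.6, 14.9, 16.8 and 11.2 CPM on day 1, a log2 fold change of −3.05 (SE 0.13, adjusted p = 5.69e-23). No library of day 1 reached the lowest of day 0 in these 3 genes. SESN2, an inhibitor of mTORC1 signalling, fell from 247 ± 18 to 39.1 ± 7.18 CPM, CHAC1, which degrades glutathione, from 14.7 ± 1.57 to 1.97 ± 0.964 CPM, and TRIB3, a pseudokinase, from 135 ± 9.84 to 43.4 ± 4.0 CPM. The member that was higher was DDIT4, from 196 ± 12.7 to 254 ± 36.1 CPM with overlapping libraries (log2 fold change 0.37, SE 0.15, adjusted p = 0.0402), and it was not called with RLE factors (adjusted p = 0.058) or without any 1 library other than replicate 4 of either day (adjusted p of 0.0532 to 0.137). Among regulators of eIF2α, EIF2AK4, the amino acid sensor GCN2, had 247, 251.7, 246, 260.3 and 269 CPM on day 0 and 83.9, 88.5, 94.2, 86.1 and 87.4 CPM on day 1, a log2 fold change of −1.53 (SE 0.059, adjusted p = 1.83e-24). EIF2AK3, the ER kinase PERK, fell from 81.1 ± 1.77 to 40.4 ± 3.78 CPM, and the phosphatase subunits PPP1R15A and PPP1R15B had log2 fold changes of −1.80 and −1.36. EIF2B3 and EIF2B4, subunits of the exchange factor that phosphorylated eIF2α blocks, rose from 28.6 ± 1.15 to 85.3 ± 6.61 CPM and from 25.9 ± 1.2 to 58 ± 6.2 CPM. Over the whole group of 14 genes, 7 were higher and 5 lower.

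The element at which ATF4 binds with C/EBP proteins was searched as TGATGNAAN. It lay in 2 of the 15 windows of effectors that fell (CHAC1 and ATF3) and in 300 of all 13348 windows, a share of 2.25%. The window of ATF3, which fell more than CHAC1, is at chr1:212565157-212565456 on the plus strand, with the matching bases from −191 to −183 in capitals. Whether the ATF3 transcripts counted here begin at this start was not tested.
ATF3: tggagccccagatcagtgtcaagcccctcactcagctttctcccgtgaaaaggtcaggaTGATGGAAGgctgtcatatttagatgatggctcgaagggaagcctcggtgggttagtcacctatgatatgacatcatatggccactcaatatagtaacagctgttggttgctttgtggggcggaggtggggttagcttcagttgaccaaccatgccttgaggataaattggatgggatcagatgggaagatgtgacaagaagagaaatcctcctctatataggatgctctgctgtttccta

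Most genes of amino acid synthesis, which ATF4 controls in large part, were also lower. Of 18 genes for the synthesis of serine, glycine, one-carbon units, proline and asparagine, 14 were lower and 4 higher (median −1.06). ASNS, asparagine synthetase, had 619.8, 613, 588, 656 and 630.1 CPM on day 0 and 157, 159, 166, 174 and 168 CPM on day 1, a log2 fold change of −1.91 (SE 0.066, adjusted p = 4.14e-26) without overlap. PHGDH, the first enzyme of serine synthesis, fell from 185 ± 24.1 to 39.5 ± 9.32 CPM (log2 fold change −2.22, SE 0.17, adjusted p = 8.63e-15), CBS and CTH, which make cysteine from homocysteine, from 282 ± 17.5 to 52.7 ± 4.09 CPM and from 54.2 ± 3.0 to 10.7 ± 1.86 CPM, and ALDH1L2, a folate enzyme of mitochondria, from 79.1 ± 11.1 to 11 ± 3.41 CPM. SHMT1 and MTHFD1, cytosolic folate enzymes, rose by 0.67 and 0.58. Of 16 amino acid transporters 8 were lower and 5 higher. SLC6A9, a glycine transporter, fell from 93.1 ± 8.49 to 13.3 ± 0.74 CPM, SLC7A5 and SLC3A2, the chains of the large neutral amino acid exchanger LAT1, from 1048 ± 62.8 to 414 ± 20.2 CPM and from 761 ± 52.7 to 386 ± 31.1 CPM, and SLC7A1, a carrier of arginine and lysine, from 363 ± 19.9 to 152 ± 6.86 CPM. SLC36A4 rose from 9.57 ± 1.1 to 30.9 ± 1.36 CPM (log2 fold change 1.69, SE 0.12, adjusted p = 8.51e-16), and SLC38A5, a glutamine transporter, from 191 ± 8.76 to 338 ± 18.5 CPM.

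The tRNA synthetases of the cytosol and of mitochondria gave different counts. Of the 20 cytosolic ones 14 were lower and 5 higher, with a median of −0.55, and of the 17 mitochondrial ones 13 were higher and 2 lower, with a median of 0.73. The difference between the lists was not tested. SARS, WARS, AARS and GARS, which charge serine, tryptophan, alanine and glycine tRNAs, had log2 fold changes of −1.36, −1.33, −1.31 and −1.03. HARS and RARS, for histidine and arginine, rose by 1.16 and 0.98. LARS2, for mitochondrial leucine, rose from 16.8 ± 1.36 to 43.8 ± 3.72 CPM (log2 fold change 1.38, SE 0.089, adjusted p = 3.53e-17).

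Immediate-early genes, which cells switch on within minutes of serum or stress, were the list with the lowest median, −1.92. Of 30 members, 27 were lower and none higher. NR4A1, an orphan nuclear receptor, had 276, 262, 255, 259.7 and 247 CPM on day 0 and 5.59, 5.51, 4.4, 3.77 and 5.07 CPM on day 1, a log2 fold change of −5.73 (SE 0.082, adjusted p = 5.54e-39). EGR1, a zinc-finger factor, had 21.8, 22.2, 15.4, 18.4 and 17.5 CPM on day 0 and 0.147, 0.787, 0.847, 0.858 and 0 CPM on day 1, a log2 fold change of −5.15 (SE 0.36, adjusted p = 3.89e-16), and 1 library of day 1 had no count. FOS, a subunit of AP-1, fell from 52.3 ± 4.08 to 1.92 ± 0.475 CPM (log2 fold change −4.76, SE 0.32, adjusted p = 1.51e-16), while its partner JUN fell less, from 47.2 ± 4.54 to 24.8 ± 3.79 CPM (log2 fold change −0.93, SE 0.13, adjusted p = 6.61e-08). Whether day 0 cells were collected before or after their medium was renewed is not stated. DUSP1, a phosphatase that shuts off MAP kinases, had 55.4, 37.1, 49.5, 46.5 and 42.5 CPM on day 0 and 14, 13.1, 11.2, 14.2 and 10.8 CPM on day 1, a log2 fold change of −1.87 (SE 0.16, adjusted p = 1.57e-13). EGR3, another zinc-finger factor, did not pass the test (adjusted p = 0.904). It had 25.5, 23.2, 20.4, 19.8 and 18.7 CPM on day 0 and 5.59, 5.98, 91.6, 8.23 and 4.9 CPM on day 1. The high level on day 1 was that of replicate 3 alone, and the other 4 libraries lay below all of day 0. Without that library EGR3 was lower, with a value of −1.80 (SE 0.19, adjusted p = 6.84e-11).

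The cAMP response element, searched as TGACGTCA, lay in 2 of the 21 windows of immediate-early genes that fell (JUND and DUSP1) and in 2.72% of all windows. The CArG box (CC, 6 bases that are A or T, GG), at which serum response factor binds, lay in 1 of the 21 (EGR1) and in 1.13% of all windows. The windows of DUSP1 (chr5:172771146-172771445, minus strand, match from −125 to −118) and EGR1 (chr5:138465229-138465528, plus strand, matches from −105 to −96 and from −83 to −74) are shown for these elements, with the matching bases in capitals.
DUSP1: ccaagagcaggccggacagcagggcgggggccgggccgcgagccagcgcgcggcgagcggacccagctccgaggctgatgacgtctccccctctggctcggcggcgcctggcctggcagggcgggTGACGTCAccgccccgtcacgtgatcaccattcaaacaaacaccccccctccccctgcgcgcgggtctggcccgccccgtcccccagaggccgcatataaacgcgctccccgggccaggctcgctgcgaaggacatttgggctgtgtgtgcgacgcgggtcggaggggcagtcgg
EGR1: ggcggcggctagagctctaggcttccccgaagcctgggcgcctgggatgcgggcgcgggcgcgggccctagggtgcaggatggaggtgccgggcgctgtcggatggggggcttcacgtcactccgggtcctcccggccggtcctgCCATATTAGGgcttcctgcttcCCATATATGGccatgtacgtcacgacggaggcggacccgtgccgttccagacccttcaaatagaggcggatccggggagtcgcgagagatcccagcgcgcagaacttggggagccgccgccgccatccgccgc

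**Figure D4:**
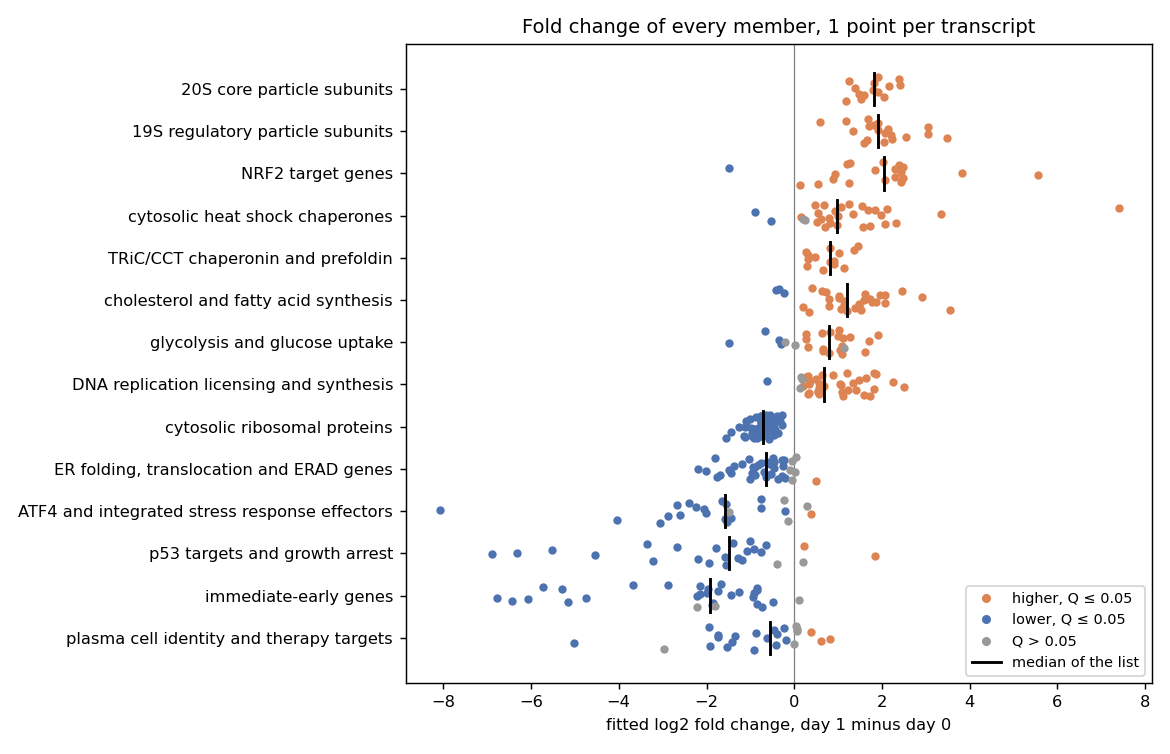
Fitted log2 fold change, day 1 minus day 0, of every member of 14 gene lists, 1 point per transcript, orange where higher and blue where lower at Q ≤ 0.05, with a black line at the median of the list. Proteasome subunits and NRF2 targets lay to the right of 0 apart from SLC7A11, and ATF4 effectors, p53 targets and immediate-early genes lay mostly to the left; the outermost points, HSPB8 and GDF15, had no count on one of the days and their fitted values are no bounds.

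Most targets of p53 were lower. Of 24 members, 20 were lower and 2 higher, with a median of −1.48. MDM2, the ligase that degrades p53 and is itself its target, had 1818, 1633, 1936, 1642 and 1576 CPM on day 0 and 75.3, 67.2, 78.2, 72 and 75.1 CPM on day 1, a log2 fold change of −4.55 (SE 0.077, adjusted p = 1.53e-36). CDKN1A, the cell cycle inhibitor p21, had 672, 505, 588, 493 and 471 CPM on day 0 and 53.7, 54.5, 56.7, 74.8 and 52.1 CPM on day 1, a log2 fold change of −3.23 (SE 0.095, adjusted p = 2.59e-28). Neither gene overlapped between the days. The largest falls of the list were those of PHLDA3, an inhibitor of AKT, from 25.5 ± 0.645 to 0.199 ± 0.136 CPM (log2 fold change −6.90, SE 0.46, adjusted p = 1.30e-16), and of RRAD, a small GTPase, from 197 ± 5.48 to 4.26 ± 0.571 CPM (log2 fold change −5.53, SE 0.15, adjusted p = 2.42e-29). TP53INP1, CCNG1 and TIGAR had log2 fold changes of −3.36, −1.94 and −2.67. TNFRSF10A and GADD45G, the members that were higher, had overlapping libraries.

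The BCL2 family sets the threshold of apoptosis. Of its 18 members listed, 8 were lower, 3 higher and 7 not called. Among all 12151 transcripts above 1 CPM, 4230 were lower and 4436 higher, and the difference from these shares was not tested. MCL1, on whose protein myeloma cells depend for survival, had 1120.5, 1179.8, 1230.3, 1245 and 1224 CPM on day 0 and 407, 411, 415, 372 and 393 CPM on day 1, a log2 fold change of −1.59 (SE 0.048, adjusted p = 7.44e-28). The BH3-only genes BBC3, PMAIP1 and BMF, whose proteins counter it, fell from 137 ± 8.2 to 8.33 ± 0.415 CPM, from 68.4 ± 14.4 to 13 ± 1.4 CPM and from 111 ± 3.95 to 31.6 ± 3.3 CPM. BID and BAD, which also promote apoptosis, rose by 1.30 and 0.82, and BCL2L1, a survival gene, by 0.43. GDF15, a secreted marker of stress that p53 and ATF4 induce, had 155 counts on day 0 and none on day 1, and was at least 54.5-fold lower when set against 3 counts over the 5 libraries.

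Genes of sterol and lipid synthesis rose broadly. Of 31 genes 28 were higher and 3 lower, with a median of 1.21. SQLE, which makes the epoxide of squalene, had 45.4, 49.8, 42.2, 46.9 and 45 CPM on day 0 and 251.5, 262, 265, 236 and 244 CPM on day 1, a log2 fold change of 2.45 (SE 0.068, adjusted p = 4.18e-29) without overlap. MSMO1 and FDPS, enzymes of a later and an earlier step, rose by 2.90 and 2.07. SREBF1 and SREBF2, the genes of the factors that drive this pathway, fell from 435 ± 21.8 to 328 ± 19.3 CPM (log2 fold change −0.41, SE 0.053, adjusted p = 1.07e-08) and from 509 ± 31.7 to 398 ± 11.6 CPM (log2 fold change −0.35, SE 0.049, adjusted p = 3.65e-08). The third member that was lower was PMVK at −0.23, whose call was lost without scaling factors (adjusted p = 0.16).

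Most glycolytic genes rose as well. Of 25 genes 18 were higher and 4 lower (median 0.80), and the sum of the list went from 9610 to 11202 CPM per library on day 0 to 24492 to 26141 CPM on day 1. PKM, pyruvate kinase, had 1836, 1855, 1635, 1984 and 1953 CPM on day 0 and 6728, 7018, 7129.9, 7159 and 6898 CPM on day 1, a log2 fold change of 1.92 (SE 0.060, adjusted p = 1.63e-27) without overlap. ENO1, an enolase, rose from 1717 ± 128 to 5282 ± 191 CPM (log2 fold change 1.62, SE 0.057, adjusted p = 8.64e-26), and SLC2A1, the glucose transporter GLUT1, from 50.4 ± 9.96 to 88.8 ± 11.9 CPM (log2 fold change 0.82, SE 0.15, adjusted p = 1.45e-05). PFKFB4 and PFKFB2, which set the level of the activator of phosphofructokinase, moved apart, by 1.69 and −1.50. TXNIP, which limits glucose uptake, rose from 362 ± 28.2 to 844 ± 40.8 CPM (log2 fold change 1.22, SE 0.090, adjusted p = 3.05e-15).

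Transcripts of the cytosolic ribosome fell and most of those of the mitochondrial ribosome rose. All 77 cytosolic ribosomal proteins were lower (median −0.72) and none was higher. RPL3, a large subunit protein near the catalytic center, had 4816, 4674, 4468, 4953 and 4867 CPM on day 0 and 1679.9, 1792, 1778, 1847 and 1713 CPM on day 1, a log2 fold change of −1.43 (SE 0.062, adjusted p = 8.13e-23). Of 77 mitochondrial ribosomal proteins, 64 were higher and 5 lower (median 0.51). Respiratory chain subunits were counted by the genome that encodes them. Of 73 nuclear-encoded subunits 53 were higher and 8 lower (median 0.49), and all 13 mitochondrially encoded transcripts were lower (median −0.79). MT-CYB, cytochrome b, had 8809.8, 10420.0, 11892, 9739.9 and 8130.5 CPM on day 0 and 5068, 4142, 3687, 4227 and 3721 CPM on day 1, a log2 fold change of −1.23 (SE 0.11, adjusted p = 2.12e-13). NDUFA4, a subunit that now counts to complex IV, rose from 61.2 ± 10.7 to 223 ± 14.4 CPM (log2 fold change 1.86, SE 0.074, adjusted p = 5.14e-24). The cytosolic ribosomal proteins and the mitochondrially encoded transcripts held the shares of day 0 counts given above, and shares of a fixed total move against each other. In ribosome biogenesis, 25 of 38 genes were higher and 7 lower, and POLR1A, the largest subunit of RNA polymerase I, rose from 110.5 ± 2.88 to 186 ± 7.18 CPM (log2 fold change 0.75, SE 0.055, adjusted p = 2.07e-15).

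Replication genes rose more often than mitotic ones, a difference that was not tested. Of 37 genes for the licensing and synthesis of DNA, 33 were higher and 1 lower (median 0.68). MCM10, which helps start replication forks, had 4.36, 5.4, 4.83, 7.01 and 5.58 CPM on day 0 and 26.8, 30.8, 33.4, 30.4 and 30.4 CPM on day 1, a log2 fold change of 2.49 (SE 0.13, adjusted p = 6.15e-20). PCNA, the sliding clamp and also a p53 target, was the member that fell, from 169 ± 11.8 to 109 ± 5.37 CPM (log2 fold change −0.62, SE 0.069, adjusted p = 2.03e-10). Of 31 mitotic genes 13 were higher and 4 lower (median 0.14). AURKA, a spindle kinase, rose from 6.47 ± 0.656 to 15.7 ± 2.93 CPM, and TOP2A, the mitotic topoisomerase, fell from 114 ± 4.37 to 82 ± 9.65 CPM (log2 fold change −0.48, SE 0.072, adjusted p = 2.73e-07). Without scaling factors the lower mitotic genes numbered 1. Of 66 replication-dependent histone genes, 6 had no count on either day. Of the other 60, 32 were lower and none higher, with a median of −1.41, or −1.36 with the 4 members that had a count above the floor on one day and none on the other at their bound. HIST1H1C, a linker histone, fell from 103 ± 4.18 to 7.65 ± 1.11 CPM (log2 fold change −3.75, SE 0.11, adjusted p = 1.97e-28). Most histone transcripts lack a poly(A) tail, and how RNA was selected for these libraries is not given in the sources used here.

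Most myeloma and plasma cell genes were lower on day 1. The cells carried the plasma cell markers used to check the label, with IRF4, PRDM1, XBP1, SDC1, TNFRSF17, CD38, JCHAIN, MZB1 and POU2AF1 at means above 14 CPM on both days. Of 24 genes of plasma cell identity and therapy, 1 had no count on either day. Of the other 23, 16 were lower and 3 higher, with a median of −0.62, or −0.49 with CD27, which had 4 counts on day 0 and none on day 1, at its bound. JCHAIN, the joining chain of polymeric antibodies, had 4986, 4536, 4616, 5265 and 4384 CPM on day 0 and 1282, 1448, 1498, 1469 and 1489.7 CPM on day 1, a log2 fold change of −1.73 (SE 0.071, adjusted p = 1.56e-23). TNFRSF17, the receptor BCMA, had 51.5, 58.4, 50.8, 56.5 and 58.9 CPM on day 0 and 12.9, 15.3, 15.2, 16.8 and 12 CPM on day 1, a log2 fold change of −1.93 (SE 0.11, adjusted p = 4.18e-19). CD38, the target of antibody therapy, had 194, 177, 196, 194 and 190.2 CPM on day 0 and 64.4, 62.2, 68.4, 67.7 and 68 CPM on day 1, a log2 fold change of −1.53 (SE 0.062, adjusted p = 1.17e-23). IRF4, the factor on which myeloma cells depend, had 472, 480.2, 443, 464 and 452 CPM on day 0 and 304, 299.8, 292, 311 and 297 CPM on day 1, a log2 fold change of −0.62 (SE 0.065, adjusted p = 6.54e-11). None of these 4 genes overlapped between the days. PRDM1, the factor that sets the plasma cell fate, went from 91.2 ± 7.12 to 95.6 ± 7.78 CPM, with an adjusted p of 0.543. IKZF1, which lenalidomide targets for degradation, and IL6R, the interleukin-6 receptor, rose by 0.61 and 0.81. MYC changed by 0.17 (adjusted p = 0.0154, or 0.093, 0.075 and 0.057 without day 0 replicate 1, day 0 replicate 3 or day 1 replicate 5), and its partner MAX rose from 25.3 ± 4.35 to 70.1 ± 5.04 CPM (log2 fold change 1.47, SE 0.10, adjusted p = 7.06e-16).

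Of 15 markers of other cell types, 2 were higher and 6 lower, and their sum was 474 to 556 CPM per library on day 0 and 496 to 542 CPM on day 1. Almost all of it came from KRT18 (295 to 332 CPM), CD68, EPCAM and KRT8. COL3A1 and HBB had no count on either day, and CD3D and VWF none on day 0. The part of other cells in the results was not tested beyond these values.

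Antigen presentation and NF-κB genes were also lower in most members. Of 17 genes of MHC class I and peptide loading, 12 were lower and 2 higher (median −0.57). HLA-E, which natural killer cells read, had 854, 825, 791, 828 and 845 CPM on day 0 and 223, 229, 223, 235 and 229 CPM on day 1, a log2 fold change of −1.86 (SE 0.062, adjusted p = 1.16e-26) without overlap. HLA-B, which has near relatives to which its reads can be misassigned, had a log2 fold change of −0.98. ERAP1, which trims peptides in the ER, fell from 153 ± 5.49 to 57.5 ± 3.18 CPM, and its relative ERAP2 rose from 78.1 ± 4.8 to 167 ± 5.58 CPM. Of 22 genes of NF-κB and its targets, 12 were lower and 5 higher. CCL3, a chemokine of myeloma cells, fell from 63 ± 14.6 to 1.8 ± 0.763 CPM (log2 fold change −5.13, SE 0.27, adjusted p = 7.33e-20), TRAF1 from 261 ± 50.2 to 60.9 ± 6.57 CPM, and TNFAIP3, the inhibitor A20, from 118 ± 5.18 to 34.4 ± 3.88 CPM. CXCL8, interleukin 8, was among the higher ones and rose from 37 ± 9.17 to 105 ± 10.2 CPM (log2 fold change 1.49, SE 0.15, adjusted p = 8.69e-12).

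Smaller groups were mixed. Of 17 SR and related splicing factors, 9 were higher and 5 lower, with TRA2B at 1.61 and SRSF5 at −1.59, and the lower ones numbered 9 when all biotypes of a symbol were summed and 2 without scaling factors. Of 7 multidrug efflux transporters, 1 of which had no count on either day, 3 were higher and 1 lower. ABCC5 rose from 18.5 ± 3.77 to 56.8 ± 7.94 CPM. ABCB1, the efflux pump that can carry carfilzomib, was rare, with 12 counts over the day 0 libraries and 2 over those of day 1. The ratio was 6.33 (exact 95% counting interval 1.41 to 58.3), with an adjusted p of 0.0562. Of 15 mitochondrial chaperones and proteases 8 were higher and 4 lower, with HSPE1, which caps HSP60, at 1.03 and LONP1, a matrix protease, at −0.59. Of 13 general markers of proteotoxic stress, which include CLU, 8 were higher and 2 lower.

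Among transcripts with a mean above 4 CPM, several with the largest changes were not members of the lists above. Those lists are not complete, so absence from them does not place a gene outside a pathway. B4GALNT1, which makes gangliosides, rose from 0.791 ± 0.266 to 45.9 ± 3.24 CPM (log2 fold change 5.83, SE 0.32, adjusted p = 2.11e-19), TUBB4A, a tubulin found mainly in the nervous system, from 0.893 ± 0.416 to 33.5 ± 2.19 CPM, PIR, an iron-binding protein, from 1.31 ± 0.486 to 37.6 ± 2.09 CPM, HPD, an enzyme of tyrosine breakdown, from 0.201 ± 0.202 to 8.8 ± 1.09 CPM, and TNFRSF8, the receptor CD30, from 1.68 ± 1.1 to 38.5 ± 2.28 CPM. MSRB1, which repairs oxidized methionine, was one of the abundant ones and rose from 14.1 ± 0.741 to 128 ± 13.6 CPM (log2 fold change 3.18, SE 0.11, adjusted p = 8.96e-26). Of the falls, MUC21, a mucin, went from 13.3 ± 1.65 to 0.197 ± 0.209 CPM, PDE2A, a phosphodiesterase, from 13.3 ± 2.69 to 0.24 ± 0.447 CPM, GDNF, a neurotrophic factor, from 20.3 ± 3.99 to 0.933 ± 0.35 CPM, and ITGB2, the β2 integrin of leukocytes, from 37.3 ± 3.94 to 1.83 ± 0.921 CPM (log2 fold change −4.35, SE 0.18, adjusted p = 3.88e-23). PCK2, the mitochondrial carboxykinase, fell from 145 ± 12.6 to 17.1 ± 1.52 CPM, FCMR, the receptor of IgM, from 371 ± 21.5 to 45.8 ± 2.11 CPM, and DEPTOR, an inhibitor of mTOR that is abundant in myelomas, from 149 ± 6.55 to 20.6 ± 1.35 CPM (log2 fold change −2.86, SE 0.061, adjusted p = 5.17e-33).

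Day 2 was compared with day 1 to show which of these levels had already moved on. Of all 17999 transcripts, 3643 (20.2%) were higher on day 2 than on day 1 and 3491 (19.4%) lower. All 14 subunits of the 20S core, all 19 of the 19S particle and all 20 NRF2 targets were lower on day 2. Among the NRF2 targets, SLC7A11 had already been lower on day 1 and fell further, to 16.6 ± 2.66 CPM. Of the heat shock genes 19 of 30 were lower and 4 higher. PSMC4 stood at 60.6 ± 10.2 CPM on day 2, HMOX1 at 13.5 ± 4.01, HSPA1A at 14.2 ± 2.8 and SQSTM1 at 346 ± 37.4. The value of HSPA1A again depends on how reads were split between it and HSPA1B. Of the cholesterol genes 9 were lower and 12 higher, and SQLE stood at 176 ± 6.87 CPM. Of the ATF4 effectors 12 of 23 were lower still and 2 higher, with ATF4 at 225 ± 10.2 and ASNS at 86.9 ± 5.53. Among the 24 p53 targets 8 were lower and 7 higher, and among the 30 immediate-early genes 8 were lower and 8 higher. MDM2 stood at 58.4 ± 2.92 CPM on day 2 and 67.6 ± 9.63 on day 10, and NR4A1 at 5.03 ± 0.53 and 21.9 ± 1.96. Both genes were thus still below their day 0 levels on day 10. The mitotic genes were higher in 30 of 31 cases and the plasma cell genes in 13 of 24, with CD38 at 209.6 ± 15 and TNFRSF17 at 80.9 ± 3.3 CPM. These differences rest on the same day 1 libraries as those above and are not independent of them.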

How the data were processed

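RNA was sequenced in 35 libraries with a directional kit, of which the 10 of days 0 and 1 are described, and how RNA was selected is not given in the sources used here. Per the study's methods and the submitters' processing notes, the authors quantified reads with Kallisto 0.44.0 on GENCODE 28 with adjustment for GC content and summed them by gene symbol and biotype. The deposited values are estimated counts given as whole numbers and were used unchanged. Only protein-coding entries were used. Totals of 6641766 to 9400769 counts per library limit the precision for rare transcripts.

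Counts were fitted with the quasi-likelihood test of edgeR 4.0.16 in R 4.3.3 (TMM factors, the day as factor, all 35 libraries, transcripts with at least 1 count), and p-values were adjusted by Benjamini–Hochberg over 17999 transcripts. Counts of 16593 transcripts were also simulated from the day 0 proportions, with changes set on day 1 in few transcripts, none of them rare. Rises and falls were equal in number. Of these changes, 100 of 100 of 4-fold and 82 of 100 of 1.5-fold were recovered, and 5 of 16393 unchanged transcripts passed Q ≤ 0.05. The real contrast held far more changes and a shift in composition, so these rates need not hold for it. A fold against a day without counts was computed against 3 counts over its 5 libraries. Counting intervals cover counting error only. Alternatives were DESeq2 1.42.0, RLE factors, no scaling factors, a filter on low counts, all biotypes of a symbol summed, only the 10 libraries, a replicate block, a prior count of 2, stricter fold cutoffs and each library left out.

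Genes were named by a rule: in each list, up to 4 of the largest rises and falls past Q ≤ 0.05 with a mean above 1 CPM and preset key members, the 15 largest changes each way above 4 CPM and the 10 largest above 64 CPM without overlap, and genes the study's text names. Results for some items are not reported here. Named outside it after their values were seen were PGD, TALDO1, HSPA1B, HSPA8, HSP90AA1, TRIB3, CCNG1, TIGAR, GADD45G, EGR3, CD27, the marker genes, and members listed for a promoter motif. The comparison, lists and members were chosen with earlier results of these data known, and 7 list symbols without a count were not used.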

Additional observations from a re-analysis of the deposited data

Results flagged for a closer look

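In 106 groups of 5 libraries, made up of 12 composition measures and 41 transcripts on each day, 9 had 1 library far from the other 4, with a gap to the nearest library of more than 0.71 of the range. Chance gives about 1 in 20 such groups.

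Day 1 replicate 3 had the highest share of lincRNA, 3.61% of counts against 1.47% to 1.95% in the others of its day, of antisense entries, 1.28% against 0.532% to 0.603%, and of processed pseudogenes, 0.746% against 0.183% to 0.192%. Day 0 replicate 3 was lowest in NFE2L1, at 775 CPM against 818 to 827 CPM, and in HSPB1, at 53.8 CPM against 68.7 to 71.4 CPM. Day 1 replicate 4 was highest in HSPB1, at 361 CPM against 258 to 287 CPM, and in CDKN1A, at 74.8 CPM against 52.1 to 56.7 CPM. Day 1 replicate 1 was lowest in XBP1, at 399 CPM against 464 to 486 CPM, and in JCHAIN, at 1282 CPM against 1448 to 1498 CPM. In NFE2L1, HSPB1, CDKN1A and JCHAIN these libraries still lay on the same side of every library of the other day.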

How the results depend on the processing

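Requiring the fold change itself to exceed 2 (glmTreat) left 1948 deregulated transcripts, 698 higher and 1250 lower, and a log2 fold cutoff of 2 left 1395, 312 higher and 1083 lower. The other alternatives kept the total within 1.5 times of 3679, and leaving out 1 library gave 3493 to 3664. Same-numbered libraries of the 2 days did not deviate together (correlations of −0.041 to 0.042). This cannot tell whether the numbers mark the same subculture, since a weak shared deviation would be hidden by noise between libraries. A fit with the replicate block gave 3499 deregulated transcripts, and of 330 named genes only ABCC1 and ATG7 lost their call in it. With all biotypes of a symbol summed, HSF1 (−0.0014), MLX (−0.046), POLR1C (−0.13) and ATG16L1 (−0.38) changed direction, of which only ATG16L1 passed the threshold there. The cause was not tested. Of 330 named genes, 4 lost their call with DESeq2, 4 with RLE factors, 13 with all biotypes summed, 3 of those that changed direction included, and 14 without scaling factors. Without scaling factors the lower members fell in number from 5 to 2 for the SR factors, 7 to 3 for ribosome biogenesis, 4 to 1 for mitotic genes and 5 to 3 for mitochondrial ribosomal proteins, and with all biotypes summed they were 9 for the SR factors and 3 for ribosome biogenesis. Without day 0 replicate 3 the SR factors had 3. Other list counts moved by at most 1 where they moved by over 1.5 times, among them the 1 higher ATF4 effector, which was 0 in 11 alternatives. Leaving out 1 library at a time, the difference in the share of Mt_rRNA ranged from −0.214 to −0.128 percentage points and lost its call in 6 of 10 cases, that of antisense entries from −0.173 to 0.0153 and that of processed pseudogenes from −0.0673 to 0.0734. Without day 1 replicate 3 the antisense share was lower by 0.173 percentage points and the processed pseudogene share changed sign, to −0.067, both at an adjusted p of 0.0136. These library checks were chosen after seeing the data. Transcripts with few counts, such as ABCB1 and HPD, had too little depth for a precise fold.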
